A study of Mus musculus with 6 samples.

Results

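The autophagy and lysosome genes are 44 named genes that cover the machinery of autophagosome formation, the ATG8 proteins that coat it, a cargo receptor, the transcription factors TFEB and TFE3, and membrane and lumenal proteins of the lysosome. They were chosen by name. All 44 were measured, among 19935 genes in all, each by the probe set of highest mean among those with exactly 1 gene symbol. Expression was measured on 2 arrays of osteoblastic cells from Y1KO mice, which lack the Y1 receptor for neuropeptide Y, and on 4 arrays of osteoblastic cells from WT mice. All mice were male and carried GFP driven by a 3.6-kb fragment of the rat alpha1(I)-collagen promoter. In both genotypes, marrow stromal cells of femora and tibias were cultured for 7 days and the GFP-positive cells were sorted. The strain, the age, the kind of Y1 deletion and whether an array holds 1 mouse or a pool are not given in the labels, and the p-values cover only the scatter from array to array, part of which can be technical.

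Macroautophagy encloses cytoplasm in a double membrane, the autophagosome, and delivers it to the lysosome for digestion. The ULK1 kinase complex starts the process, a lipid kinase complex around Beclin 1 marks the membrane, ATG9 vesicles and ATG2 supply lipids, and a ubiquitin-like conjugation system attaches the small ATG8 proteins, LC3 and GABARAP, to the growing membrane. The lysosome holds acid hydrolases such as cathepsins and glycosidases inside a membrane lined with LAMP proteins. TFEB and TFE3, when they enter the nucleus, bind E-box elements in the promoters of many of these genes. In the osteoblast lineage, autophagy is known for its part in mineralisation and in the change from osteoblast to osteocyte.

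The values are log2 expression, so a difference of 1 is a doubling on the array's scale, and differences are Y1KO minus WT. A gene was called, and is said to have risen or fallen, at a limma adjusted p under 0.05 with Benjamini-Hochberg adjustment over all 19935 genes. Of all 19935 genes, 4837 had an unadjusted limma p under 0.05, the background for counts at that level in the fit with all arrays. The array medians lay between 5.30 and 5.37. Correlations over genes, which are not independent replicates, were 0.9961 between the Y1KO arrays, 0.9762 to 0.9875 across genotypes and 0.9911 to 0.9958 among the WT arrays. Npy1r, the targeted gene, read 2.89 and 2.83 in the Y1KO arrays and 3.11, 2.84, 2.78 and 3.00 in the WT arrays, at percentile 9.42 of all genes in WT, so it checks the genotype labels neither way. Of 10 osteoblast markers 7 were measured, and 6 of these 7 lay above the 90th percentile of all genes in WT. Col1a1 read 13.60 ± 0.03 in Y1KO (SD, n = 2) and 13.42 ± 0.05 in WT (SD, n = 4). The osteoblast markers of smallest p were Dmp1 at 1.66 and Ibsp at 0.47, neither past the test. The 7 granulocyte and 6 endothelial markers all lay below the median of all genes in WT, and 0 of these 13 were called, with 1 at an unadjusted p under 0.05. The markers of smallest p were Mpo at 0.30 and Camp at -0.21 for granulocytes and Kdr at 0.12 and Pecam1 at -0.07 for endothelium.

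Of the 44 autophagy and lysosome genes, 6 rose and 1 fell in Y1KO cells. Over all genes the called share was 12.7%, with 6.10% higher and 6.64% lower in Y1KO, and among the 44 genes it was 15.9%, with 13.6% higher and 2.27% lower. The share called in either direction was thus near the background. Of the 44 genes, 42 lay above the median of all genes in WT, while the share over all genes includes dim genes. Among genes past the 40th percentile of mean expression, 20.5% of the 44 and 23% of all genes were called. The genes that rose were Wipi1, Atg13, Gabarapl1, Atg4a, Sqstm1 and Atg2b, and the gene that fell was Map1lc3a. All 7 belong to the 27 genes of the autophagy machinery. None of the 15 lysosomal proteins and neither of the transcription factors was called. The differences were small, at most 1.61-fold, and 0 of the 44 reached 2-fold.

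The direction was uneven as well. The median difference over the 44 genes was 0.14, against 0.01 over all genes, and 33 of the 44 (75%) were higher in Y1KO, against 10285 of 19935 genes (51.6%). Both Y1KO arrays lay above all WT arrays for 20 of the 44, which is 45.5%, beside 17.5% of all genes. Both lay below all WT arrays for 3, which is 6.82%, against 17.3% over all genes. These shares over all genes include dim genes, and the same shares among brighter genes alone were not counted. The mean of the 44 genes relative to its WT mean was 0.09 and 0.19 in Y1KO replicates 1 and 2, against 0.05, 0.01, -0.03 and -0.03 in the WT arrays, so Y1KO replicate 1 stood close to WT replicate 1. For 34 of the 44 genes (77.3%) Y1KO replicate 2 was the higher of the Y1KO arrays, against 51.8% of all genes. Without Y1KO replicate 2, 0 members rose and 0 fell, with 5 of 44 at an unadjusted p under 0.05, and without Y1KO replicate 1, 2 rose and 0 fell. With an ordinary variance per gene in place of the moderated one, 0 of the 44 were called, with 12 at an unadjusted p under 0.05.

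**Figure D1:**
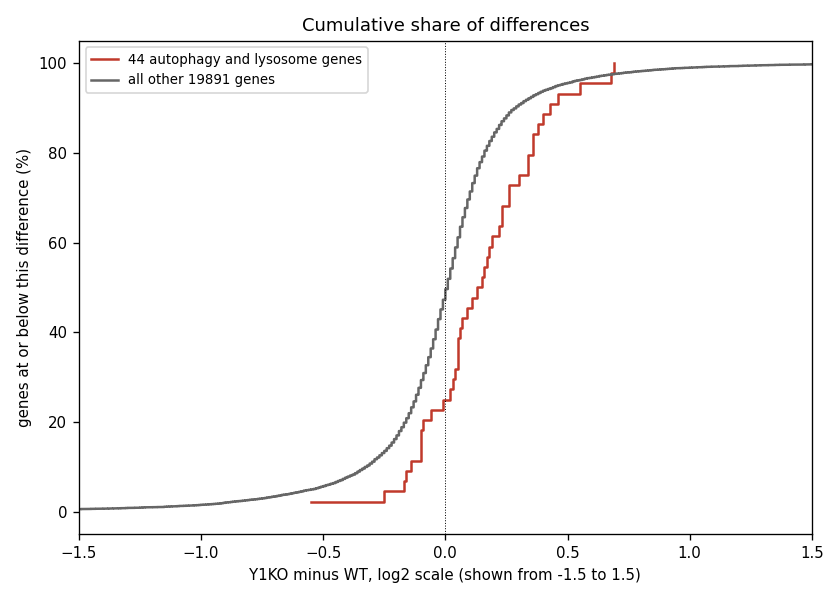
Cumulative share of genes (vertical axis, percent) by the difference between Y1KO and WT (horizontal axis, log2, cropped at 1.5 on either side), for the 44 autophagy and lysosome genes and for all 19891 other genes. The curve of the 44 genes lies to the right over most of its length, with medians of 0.14 and 0.01.

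In the same Y1KO arrays, macrophage markers were higher. Macrophages are rich in lysosomes, and a sort of marrow cultures can hold them. Of 16 macrophage markers, 10 rose and 0 fell, and their mean relative to WT was 0.32 and 0.70 in Y1KO replicates 1 and 2, against -0.13 to 0.05 in the WT arrays. Y1KO replicate 2, with the higher macrophage mean, also had the higher mean of the 44 genes and of the osteoblast markers (0.62 and 0.73 in replicates 1 and 2). It had the lower mean of the osteoclast markers (-0.06 and -0.11) and of the smooth muscle markers (-1.19 and -1.32). With only 2 arrays, such an order says little. Adgre1, which encodes the macrophage surface protein F4/80, read 5.13 and 5.53 in Y1KO, against 4.47, 4.61, 4.58 and 4.41 in WT. Fcgr3, an Fc receptor gene, rose by 1.03. In WT, 3 of the 16 macrophage markers lay above the median of all genes. Ptprc, the leukocyte antigen CD45, and the integrin gene Itgam lay at percentiles 28.5 and 26.0 in Y1KO and 26.2 and 26.2 in WT, and neither was called. An array has no true zero, so a marker cannot be read as absent. The part of these cells in the results was not tested. In such bulk samples, more cells of a type and more RNA per cell cannot be told apart.

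Markers of other cell types moved differently. Of 8 osteoclast markers, 0 rose and 1 fell, with a mean of -0.06 and -0.11 in Y1KO replicates 1 and 2 against -0.08 to 0.08 in WT. The one that fell was the integrin gene Itgb3, by 1.00, and Acp5, the acid phosphatase TRAP, was 0.40 higher without passing the test. Itgb3 lay at percentile 77.8 of all genes in WT, where 3 of the 8 markers lay above the median. Which cells give its signal was not tested. Of 8 smooth muscle and pericyte markers, 7 fell and 0 rose, with a mean of -1.19 and -1.32 in the Y1KO arrays against -0.20 to 0.22 in WT. Myl9 fell by 1.60 and Mylk by 1.32. In WT, 7 of these 8 markers lay above the median of all genes and 5 above the 90th percentile. Which cells of the sort give their signal was not tested, so the fall cannot be read as a loss of a cell type. The mean of the 7 osteoblast markers was 0.62 and 0.73 in the Y1KO arrays and -0.60 to 0.36 in the WT arrays, and 0 of the 7 were called. Dmp1 at 1.66 and Phex at 1.53 had the largest differences, with SDs over the WT arrays of 1.02 and 1.35. The other measured markers differed by 0.18 to 0.47.

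**Figure D2:**
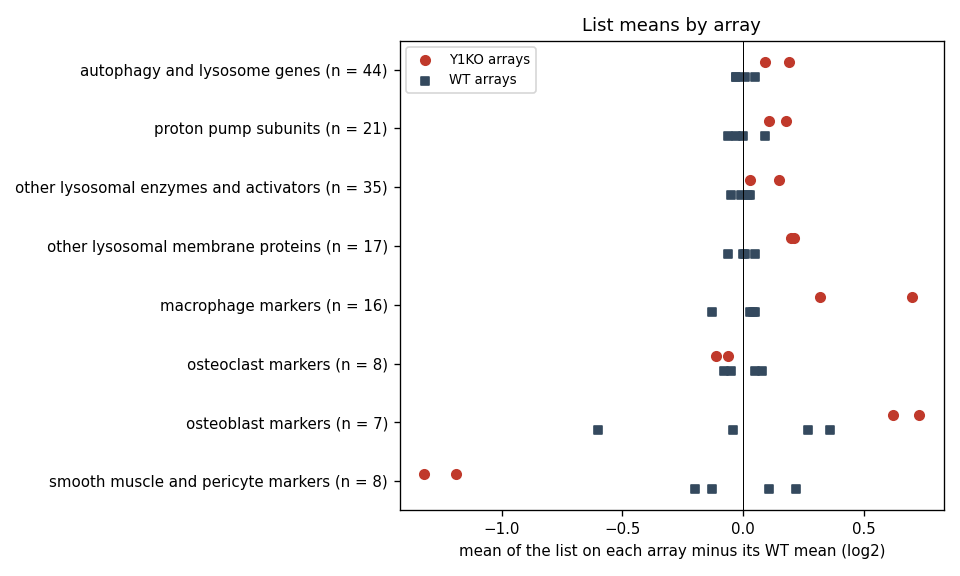
Mean of each gene list on each array minus the list's WT mean (horizontal axis, log2), with 1 point per Y1KO array and 1 square per WT array. The macrophage markers are higher on both Y1KO arrays (0.32 and 0.70) and the smooth muscle markers lower (-1.19 and -1.32), while the autophagy and lysosome genes lie at 0.09 and 0.19.

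The kinase complex that starts autophagy was represented by 4 genes, of which 1 rose. Atg13, the adaptor that holds the ULK1 complex together, read 8.36 and 8.51 in the Y1KO arrays, against 7.96, 7.78, 7.95 and 7.82 in the WT arrays. Both Y1KO arrays were above all WT arrays. Atg13 rose 1.47-fold, a difference of 0.55 (SE 0.10, 95% interval 0.33 to 0.78, limma adjusted p = 0.00742). The call was lost without Y1KO replicate 2 (0.48, limma adjusted p = 0.104). Atg101, which binds and stabilises ATG13, read 7.36 and 7.56 in Y1KO, against 7.31, 7.08, 6.91 and 7.16 in WT. Its groups did not overlap either, but the difference of 0.34 did not pass the test (limma adjusted p = 0.118). The kinase genes themselves overlapped between genotypes, with differences of 0.06 for Ulk1 (95% interval -0.20 to 0.32) and -0.06 for Ulk2 (-0.29 to 0.16).

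In the lipid kinase complex 0 of 2 genes were called, and 0 of 2 had an unadjusted p under 0.05. Atg14, the subunit that directs the complex to autophagy, read 5.37 and 5.05 in Y1KO and 5.46, 5.36, 5.20 and 5.45 in WT. Its difference of -0.16 was within the spread of the arrays. Becn1, which encodes Beclin 1, differed by 0.04 (95% interval -0.18 to 0.26).

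Genes that supply membrane and lipids to the autophagosome all had a positive difference, and 2 of 6 passed the test. Wipi1 encodes a protein that binds the lipid made by the Beclin 1 complex and marks the early autophagosome. It read 9.39 and 9.58 in the Y1KO arrays, against 8.77, 8.63, 8.97 and 8.87 in the WT arrays, with no overlap. Wipi1 rose 1.60-fold, by 0.68 (SE 0.11, 95% interval 0.42 to 0.94, limma adjusted p = 0.00624), the largest difference among the called genes of the 44. Without Y1KO replicate 2 it was 0.59 and missed the threshold (limma adjusted p = 0.0937). Atg2b, one of a pair of genes for the ATG2 lipid transfer protein, read 7.95 and 7.86 in Y1KO, against 7.67, 7.61, 7.42 and 7.49 in WT. It rose 1.28-fold, by 0.36 (SE 0.10, limma adjusted p = 0.0486), just inside the threshold. Its call was lost when any 1 of the 6 arrays was left out (limma adjusted p from 0.0506 to 0.272). A second, dimmer probe set of Atg2b gave a like difference of 0.40 that did not pass (adjusted p = 0.0716 over all probe sets).

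The paralogues of both were not called. Wipi2, which recruits the conjugation machinery, differed by 0.15 (95% interval -0.06 to 0.36) and Atg2a by 0.16 (-0.10 to 0.42), and no difference between paralogues was tested. Atg9a, the membrane protein of the vesicles that seed the autophagosome, read 7.85 and 7.94 in Y1KO and 7.71, 7.73, 7.59 and 7.61 in WT, a difference of 0.23 (limma adjusted p = 0.148). Atg9b, its paralogue, lay below the median of all genes on the array in both genotypes and differed by 0.05.

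**Figure D3:**
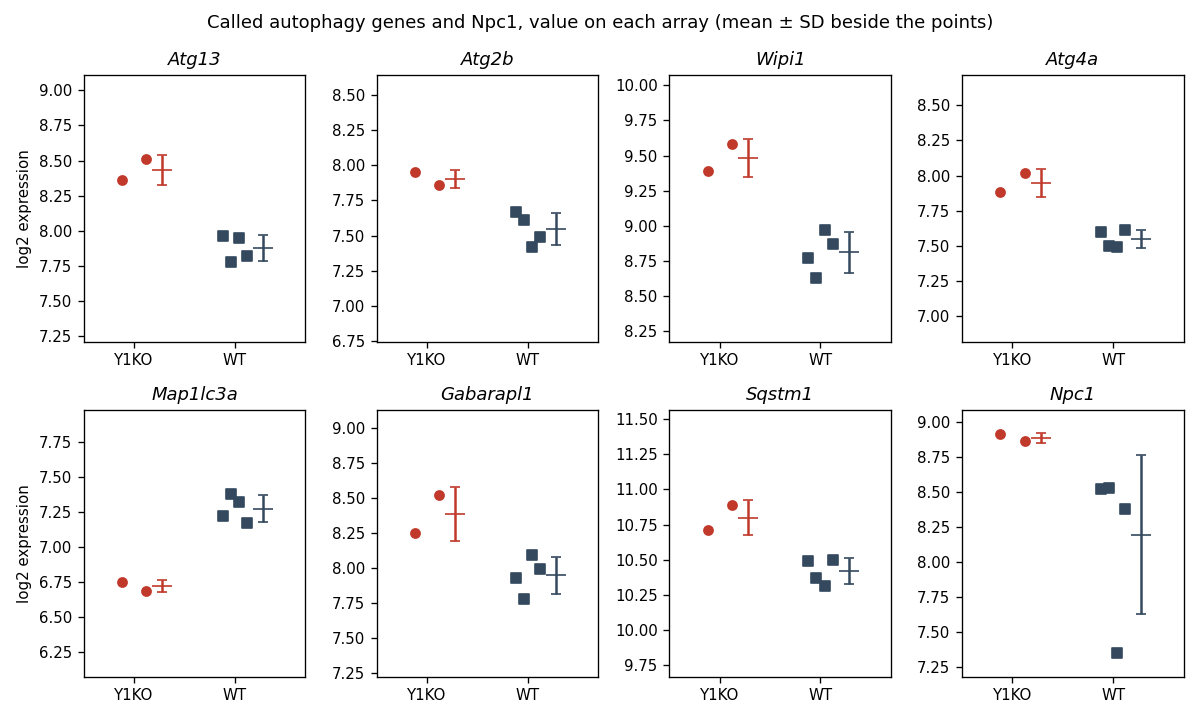
Log2 expression (vertical axis, each panel spanning the same range of log2 units) of the 7 called genes and of Npc1 on each array, Y1KO arrays at left and WT arrays at right, with the group mean ± SD beside the points. The Y1KO arrays lie above all WT arrays in the 6 genes that rose and below them in Map1lc3a. For Npc1 the WT group holds 1 low array, replicate 3 at 7.35.

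The enzymes that conjugate ATG8 proteins and ATG12 showed 0 calls among 5 genes, with 1 at an unadjusted p under 0.05. That gene was Atg3, the E2-like enzyme for ATG8 proteins. It read 8.94 and 8.90 in Y1KO, against 8.69, 8.45, 8.75 and 8.75 in WT, and differed by 0.26 (limma adjusted p = 0.187). Atg7, the E1-like enzyme, differed by 0.11 and Atg5, which is joined to ATG12, by 0.09. Atg10, the E2-like enzyme for ATG12, differed by 0.03, and Atg12 by -0.10. The 95% intervals of these last 4 genes all included 0 and reached no further than -0.30 or 0.36.

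The ATG4 proteases cut newly made ATG8 proteins for conjugation and release them from membranes again. In all 4 genes the Y1KO arrays lay outside the WT range, as in 34.8% of all genes, but not on one side, and 1 passed the test. Atg4a read 7.88 and 8.02 in the Y1KO arrays, against 7.60, 7.50, 7.49 and 7.61 in the WT arrays. It rose 1.32-fold, by 0.40 (SE 0.09, limma adjusted p = 0.0209), and a second probe set gave 0.38 (adjusted p = 0.0217 over all probe sets). Without Y1KO replicate 1 or 2 the difference was 0.47 or 0.33, neither past the test (limma adjusted p = 0.0721 and 0.210). Atg4b, the paralogue with the broadest activity on ATG8 proteins, was on the other side, at 7.45 and 7.56 in Y1KO against 7.92, 7.80, 7.70 and 7.62 in WT. Its difference of -0.25 did not pass (limma adjusted p = 0.178). Atg4c and Atg4d differed by 0.26 and 0.18, and neither passed.

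The ATG8 family split between its branches. Of the LC3 genes, Map1lc3a read 6.75 and 6.69 in the Y1KO arrays, against 7.22, 7.38, 7.32 and 7.17 in the WT arrays, below every WT array. It fell by 0.55, a 1.47-fold decrease (SE 0.09, 95% interval -0.77 to -0.34, limma adjusted p = 0.00676). With either Y1KO array left out it stayed close, at -0.58 and -0.53, but missed the threshold (limma adjusted p = 0.0530 and 0.0878). Map1lc3b, the LC3 gene most used to follow autophagy, read 8.77 and 8.89 in Y1KO and 8.92, 8.98, 9.20 and 8.89 in WT. The groups touched at 8.89, the difference of -0.17 did not pass (limma adjusted p = 0.422), and a second probe set gave -0.15.

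The 3 genes of the GABARAP branch were all higher in Y1KO with no overlap, as were 17.5% of all genes, and 1 passed the test. Gabarapl1 read 8.25 and 8.52 in Y1KO, against 7.93, 7.78, 8.09 and 7.99 in WT, and rose 1.35-fold, by 0.43 (SE 0.12, limma adjusted p = 0.0443). Its call was lost without WT replicate 1, 2 or 4 or without either Y1KO array (limma adjusted p from 0.0715 to 0.365). Gabarapl2 read 9.14 and 9.33 in Y1KO, against 8.75, 8.57, 9.04 and 8.76 in WT, a difference of 0.46 that narrowly missed the threshold (limma adjusted p = 0.0592) and passed it without WT replicate 3 (0.54, limma adjusted p = 0.0178). A second probe set for Gabarapl2, with means of 4.91 in Y1KO and 4.84 in WT, differed by 0.06, so the 2 probe sets of this gene disagree. Gabarap read 11.42 and 11.57 in Y1KO, against 11.18, 11.13, 11.35 and 11.12 in WT, a difference of 0.30 (limma adjusted p = 0.0958) that passed without WT replicate 3 (0.35, limma adjusted p = 0.0439). Members of this family are alike in sequence, and whether the probes tell them and any processed copies apart was not tested. The difference between the branches was not tested either.

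Sqstm1 encodes p62, a receptor that binds ubiquitinated cargo and LC3 and is itself digested by autophagy, so its protein level need not follow its transcript. The Y1KO arrays read 10.71 and 10.89 and the WT arrays 10.49, 10.37, 10.31 and 10.50, with no overlap. Sqstm1 rose 1.30-fold, by 0.38 (SE 0.10, limma adjusted p = 0.0383). The call was lost when any 1 of the 6 arrays was left out, with limma adjusted p from 0.0517 to 0.314.

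The transcription factor genes Tfeb and Tfe3 were not called, and neither had an unadjusted p under 0.05. Tfeb read 5.74 and 5.79 in Y1KO, against 5.69, 5.93, 5.83 and 6 in WT. Tfe3 read 7.08 and 7.16 in Y1KO, against 7.22, 7.39, 7.14 and 7.13 in WT. Both overlapped between genotypes and both differed by -0.10, with 95% intervals of -0.34 to 0.14 for Tfeb and -0.34 to 0.13 for Tfe3. Their activity is set largely by where the protein sits in the cell, which an array of transcripts does not measure.

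**Figure D4:**
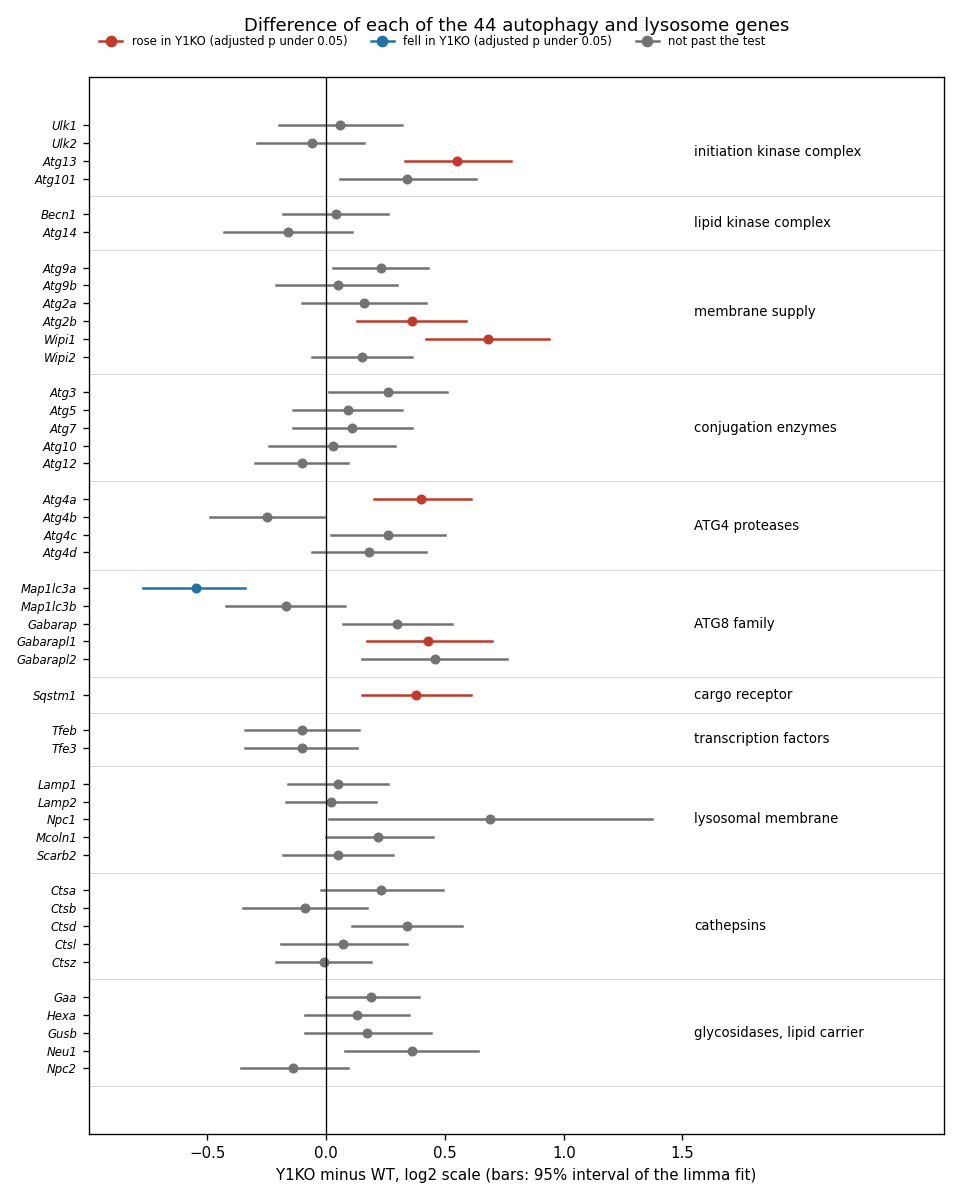
Difference between Y1KO and WT of each of the 44 genes (horizontal axis, log2) with its 95% interval from the limma fit, grouped by role. The 6 genes that rose and the 1 that fell, at an adjusted p under 0.05, are coloured. Several grey intervals also exclude 0, because the interval of a single gene is not adjusted for the 19935 genes tested.

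Among 15 lysosomal proteins, 0 rose and 0 fell by limma, with 4 at an unadjusted p under 0.05. That is near the share over all genes, 4837 of 19935. The median difference of the 15 was 0.13, and 12 of the 15 were higher in Y1KO. These probe sets were bright, with all 15 above the median of all genes in WT and 10 above the 90th percentile. Apart from Npc1, the 95% intervals of the 14 other genes ran no lower than -0.36 and no higher than 0.64.

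In the lysosomal membrane, the major glycoprotein genes differed little between genotypes. Lamp1 read 11.11 and 11.30 in Y1KO, against 11.21, 11.16, 11.16 and 11.10 in WT, a difference of 0.05 (95% interval -0.16 to 0.26). Lamp2 read 10.46 and 10.54 in Y1KO, against 10.47, 10.46, 10.54 and 10.46 in WT, a difference of 0.02 (95% interval -0.17 to 0.21). Scarb2, the receptor that carries glucocerebrosidase to the lysosome, differed by 0.05. Mcoln1, the calcium channel of the lysosome through which TFEB can be activated, read 8.09 and 8.28 in Y1KO, against 8.05, 7.96, 7.86 and 7.98 in WT, with no overlap and a difference of 0.22 that did not pass (limma adjusted p = 0.200).

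Npc1, which exports cholesterol from the lysosome, had the largest difference of the 44 genes but was not called. The Y1KO arrays read 8.91 and 8.86 and the WT arrays 8.52, 8.53, 7.35 and 8.38. WT replicate 3 lay far below the other WT arrays, and both Y1KO arrays lay above all of them. The difference was 0.69 with a wide interval of 0.01 to 1.37 (SE 0.30, limma adjusted p = 0.199). Without WT replicate 3 it was smaller, at 0.41, and passed the test (limma adjusted p = 0.0277). The SD of Npc1 over the WT arrays was 0.57, where the other 43 genes reached at most 0.19. Npc2, the soluble partner that hands cholesterol to NPC1, went the other way by -0.14 without passing.

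Of the cathepsins, the lysosomal proteases, Ctsd had the largest difference. It read 11.49 and 11.69 in Y1KO, against 11.38, 11.25, 11.18 and 11.18 in WT, without overlap. The difference of 0.34 did not pass (limma adjusted p = 0.0652), though it did with dim genes left out (limma adjusted p = 0.0424 with the lowest 40 percent removed and 0.0334 with the lowest 60 percent) and with the trend and robust options of limma (0.0330). Ctsa, the protective protein of neuraminidase and beta-galactosidase, differed by 0.23, with its groups overlapping. Ctsb, Ctsl and Ctsz differed by -0.09, 0.07 and -0.01, and Ctsz changed sign, to 0.01, when arrays were centred on their medians.

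The glycosidase genes leaned upward without a call. Neu1, the lysosomal neuraminidase, read 7.14 and 7.45 in Y1KO, against 7.03, 6.90, 6.76 and 7.03 in WT, a difference of 0.36 (limma adjusted p = 0.0980). Gaa, which breaks down glycogen, differed by 0.19, Gusb, the beta-glucuronidase, by 0.17, and Hexa, a subunit of hexosaminidase, by 0.13, and none passed.

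The promoters of the 44 genes were searched for the E-box core CACGTG, which reads the same on both strands, for its extension TCACGTGA, which contains that core and resembles the element that TFEB and TFE3 bind, and for TGATGNAA on either strand, a form of the element used by ATF4 in amino acid stress. The window ran from 250 bases before to 50 after each transcript start in RefSeq on GRCm38.p6, and 39 of the 44 genes had an entry. The core stood in at least 1 window of 10 of the 39 genes (25.6%), against 2187 of 27025 genes (8.09%) in the whole table, and the extension in 4 (10.3%) against 304 (1.12%). TGATGNAA stood in 1 gene, Ctsl (2.56%), against 4.51% of all genes. The genes with the core were 6 of 13 lysosomal genes (Lamp1, Mcoln1, Ctsa, Ctsd, Ctsl and Gaa), 4 of 24 genes of the autophagy machinery (Atg3, Atg5, Atg7 and Atg14) and neither of the transcription factors. Of the 7 called genes, 6 had an entry and 0 of these 6 held any of the 3 motifs, which says only that these letters are not in these windows.

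The 5 promoters with the extension or with at least 3 cores are shown here, and their transcripts did not pass the test. The stretch is the last 100 bases before the start, 5′ to 3′ on the strand of the gene. Mcoln1, Ctsd, Ctsa and Atg3 hold the extension. Lamp1 does not, and is shown for its cores. Capitals mark the core CACGTG. A match is a description of the sequence and not evidence of binding in these cells.
Lamp1 (GRCm38.p6, chr8:13159061-13159160, plus strand): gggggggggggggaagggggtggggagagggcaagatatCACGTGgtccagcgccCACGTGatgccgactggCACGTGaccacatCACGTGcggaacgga
Mcoln1 (GRCm38.p6, chr8:3500419-3500518, plus strand): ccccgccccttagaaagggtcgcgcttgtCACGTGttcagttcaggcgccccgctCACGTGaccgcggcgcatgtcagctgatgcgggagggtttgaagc
Ctsd (GRCm38.p6, chr7:142387828-142387927, minus strand): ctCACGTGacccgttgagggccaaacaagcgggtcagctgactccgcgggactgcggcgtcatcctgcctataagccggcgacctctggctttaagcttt
Ctsa (GRCm38.p6, chr2:164833673-164833772, plus strand): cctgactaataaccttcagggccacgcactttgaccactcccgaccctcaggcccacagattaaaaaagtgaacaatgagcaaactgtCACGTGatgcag
Atg3 (GRCm38.p6, chr16:45158729-45158828, plus strand): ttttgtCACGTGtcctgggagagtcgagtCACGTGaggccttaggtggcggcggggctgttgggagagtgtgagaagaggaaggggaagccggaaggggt
Lamp1 held 4 cores, which began 61, 45, 28 and 15 bases before the start. Mcoln1 held 2, at 71 and 45 bases, and Atg3 held 2, at 94 and 71 bases. Ctsd held 1 in this stretch, 98 bases before the start, and Ctsa 1, 12 bases before it. The differences in transcript of these 5 genes were 0.05 for Lamp1, 0.22 for Mcoln1, 0.34 for Ctsd, 0.23 for Ctsa and 0.26 for Atg3, and none passed the test.

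Other genes of the same pathways were counted from 6 further lists, in which 15 of 140 measured genes rose (10.7%, against 6.10% of all genes) and 3 fell (2.14%, against 6.64% of all genes). Both counts rested on having 2 Y1KO arrays: 4 rose and 0 fell without Y1KO replicate 1, and 2 rose and 0 fell without Y1KO replicate 2. Tpcn1 and Ctss, described here with their lists, were called whichever array was left out. Without WT replicate 1, 11 rose and 1 fell, and without WT replicate 4, 10 rose and 3 fell. Of 29 measured further autophagy genes, 1 rose and 1 fell, with a median of 0.06, and 0 rose when any array but WT replicate 4 was left out and 0 fell without either Y1KO array. Tmem41b, a lipid scramblase needed early in autophagosome formation, rose by 0.36 (limma adjusted p = 0.0459). Its call was lost when its 2 probe sets were averaged (0.29, limma adjusted p = 0.175) and with quantile normalization (0.31, limma adjusted p = 0.0862). Dram1, a lysosomal membrane protein gene known as a p53 target that promotes autophagy, read 7.71 and 7.68 in Y1KO, against 8.39, 8.50, 8.07 and 8.31 in WT, and fell by 0.62 (limma adjusted p = 0.0121). These shares of 3.45% each lay below those over all genes.

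The proton pump that acidifies the lysosome gave 3 genes that rose and 1 that fell among 21 measured, with a median of 0.17. These are 14.3% and 4.76%, against 6.10% and 6.64% of all genes. The genes that rose numbered 1 without WT replicate 2 or WT replicate 4, 2 without WT replicate 3 and 0 without either Y1KO array, and 0 fell without WT replicate 1, WT replicate 3 or either Y1KO array. The genes that rose encode parts of its membrane sector, Atp6v0b by 0.48, Atp6v0d1 by 0.45 and Atp6v0a2 by 0.43. With the replicate block 0 rose. The call of Atp6v0a2 was also lost when its 2 probe sets were averaged (0.34, limma adjusted p = 0.188). Atp6v0b kept its call only without WT replicate 1 among the 6 arrays left out in turn. Tcirg1, the form of subunit a used by osteoclasts at the resorbing surface, read 7.58 and 7.61 in Y1KO, against 8.06, 8.26, 8.02 and 7.86 in WT, and fell by 0.46 (limma adjusted p = 0.0346).

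Of 35 further lysosomal enzymes and activators, 4 rose (11.4%) and 0 fell, with a median of 0.07, and 2 and 1 rose without Y1KO replicates 1 and 2. Without WT replicate 2 or WT replicate 3, 1 fell. Over all genes 6.10% rose and 6.64% fell. Among genes past the 40th percentile of mean expression, 4 of these 35 rose, beside 1294 of all 11961 genes. Smpd1, the acid sphingomyelinase, read 9.52 and 9.71 in Y1KO, against 9.02, 8.80, 9.07 and 9.04 in WT, and rose by 0.63 (limma adjusted p = 0.00709). Galc, which degrades galactosylceramide, rose by 0.58 and Tpp1, a tripeptidyl peptidase, by 0.45. Ctss, a cathepsin typical of macrophages and other antigen-presenting cells, read 7.49 and 7.93 in Y1KO, against 6.85, 6.74, 6.92 and 6.81 in WT, and rose by 0.88 (limma adjusted p = 0.00330). The Y1KO arrays of Ctss stood in the same order as the mean of the macrophage markers. Those of Smpd1 and Tpp1 (9.06 and 9.11) did so too, while those of Galc stood in the reverse order (7.26 and 7.19). With 2 arrays such an order says little, and the source of the Ctss signal was not tested.

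Of 17 further lysosomal membrane protein genes, 2 rose (11.8%) and 0 fell, with a median of 0.20, and 1 rose without Y1KO replicate 2. Over all genes 6.10% rose and 6.64% fell. Among genes past the 40th percentile of mean expression, 2 of these 17 rose, beside 1294 of all 11961 genes. Tpcn1, a cation channel of endosomes and lysosomes, read 8.47 and 8.43 in Y1KO, against 7.61, 7.34, 7.71 and 7.70 in WT, and rose 1.82-fold, by 0.86 (limma adjusted p = 0.00290). Slc17a5, the exporter of sialic acid from the lysosome, rose by 0.65 (limma adjusted p = 0.00736). Of 8 genes that sort enzymes by mannose 6-phosphate and related receptors, 0 were called by limma, with 2 at an unadjusted p under 0.05.

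The mTORC1 pathway senses nutrients at the lysosome and holds autophagy and TFEB in check when they are plentiful. Of 30 genes of this list, 5 rose (16.7%, against 6.10% of all genes) and 1 fell (3.33%, against 6.64%), with a median of 0.07. Without WT replicate 1 or WT replicate 4, 2 rose, and without either Y1KO array 0 rose. The count that fell was 0 without WT replicate 1 or either Y1KO array. Rragd, a GTPase gene of the lysosomal sensor, read 4.86 and 4.85 in Y1KO, against 4.22, 4.11, 4.15 and 4.42 in WT, and rose by 0.63 (limma adjusted p = 0.00606), though it lay below the median of all genes, where the array can understate a difference. Foxo1, a transcription factor gene that induces autophagy genes in other tissues, rose by 0.66 (limma adjusted p = 0.00622), and Mtor, the kinase itself, by 0.34 (limma adjusted p = 0.0281). Prkaa1, a catalytic subunit of AMPK, which activates ULK1, fell by 0.44 (limma adjusted p = 0.0266). The 2 other genes that rose were Sesn2 at 0.34 and Foxo3 at 0.33, named after their values were seen.

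**Figure D5:**
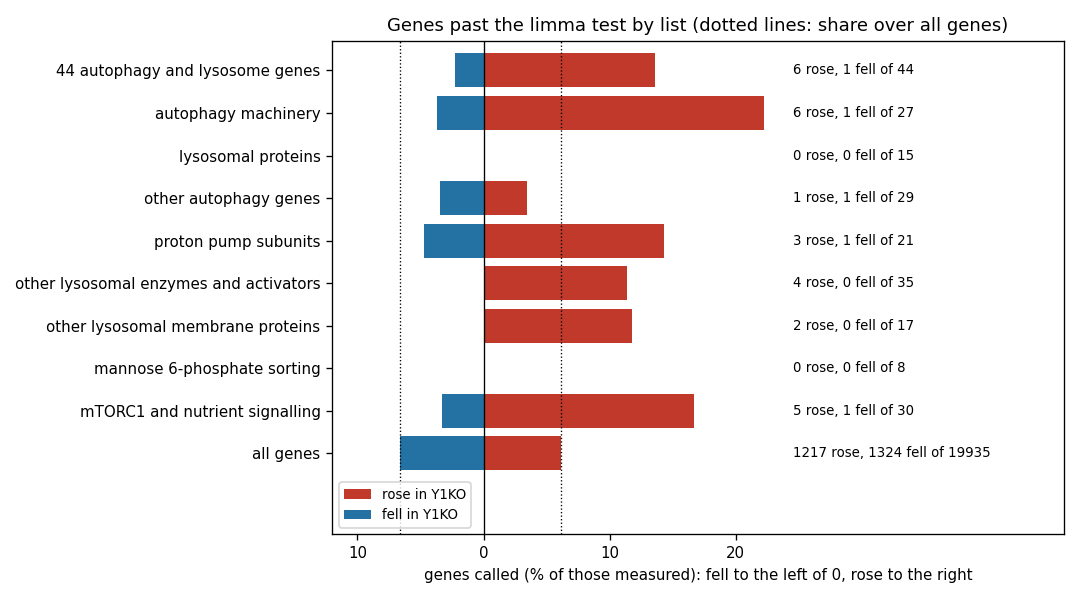
Share of measured genes called by limma in each list (horizontal axis, percent), with genes that rose in Y1KO to the right of 0 and genes that fell to the left, and the counts printed beside the bars. Dotted lines mark the shares over all genes, dim genes included, 6.10% higher and 6.64% lower.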

How the data were processed

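The authors deposited log2 expression values for 28815 probe sets on 6 single-channel Affymetrix arrays. The submitters' processing notes name RMA and limma. For versions, settings, genome build and probe annotation, nothing is given in the sources used here. The distributions were already nearly equal, and no further normalization was applied. Arrays have no read depth, so their number limits the precision.

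Probe sets were named from the repository's platform annotation, which can be old: 21780 had 1 symbol, 1605 several and 5430 none, and 21689 of those with 1 symbol matched RefSeq by gene identifier. The probe set with the highest mean stood for each of 19935 genes. Y1KO was compared with WT by lmFit and eBayes (limma 3.58.1, R 4.3.3) with genotype as the only term, two-sided, after a check on simulated data. Promoter sequences are from RefSeq (GRCm38.p6).

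The genes and lists were chosen with earlier results of these data known. Values per array were given for called members, for the largest difference in each role and for other members and genes chosen after their values were seen. Up to 4 called genes of each further list and the 2 markers of smallest p of each cell type were named, some by their difference alone. Genes of the lists that no single-symbol probe set covers were not analysed here. The alternatives were quantile normalization, median centring, filters at the 40th and 60th percentile, averaging the probe sets of a gene, trend and robust options, no moderation of the variance, a replicate block, and leaving out each array.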

Additional observations from a re-analysis of the deposited data

Results flagged for a closer look

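In the WT group of 4 arrays, 3 of the 44 genes had 1 array far from the other 3, by Dixon's ratio of the gap to the whole range, a flag that chance gives in about 1 in 20 groups. All 3 were low in WT replicate 3. Npc1 read 7.35 there, against 8.38 to 8.53 on the other WT arrays. Becn1 read 8.23, against 8.41 to 8.42, and Scarb2 read 8.07, against 8.30 to 8.32. WT replicate 3 held the lowest WT value of 19 of the 44 genes, replicate 4 of 14, replicate 2 of 9 and replicate 1 of 2, while the highest WT value fell to replicate 3 in 12. The difference of Npc1 was 0.41 without WT replicate 3 and 0.69 with it.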

How the results depend on the processing

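Of 14 alternatives, the counts of 6 rising and 1 falling genes were the same with quantile normalization and with median-centred arrays. Without moderation of the variance 0 rose and 0 fell, and over all genes 344 were called instead of 2541. When 1 array was left out, 0 to 7 genes rose (3, 3, 7 and 3 without WT replicates 1 to 4, 2 and 0 without Y1KO replicates 1 and 2), 0 to 1 fell (0 without either Y1KO array), the median difference was 0.11 to 0.17, and 487 to 2462 genes were called over all genes, 944 and 487 without the first and the second Y1KO array. The cause was not tested. Leaving out an array also leaves fewer samples, and without a Y1KO array the one that remains is assumed to vary like the WT arrays. With the replicate block 3 genes rose and the median was 0.07. The numbers do not pair the arrays by any label, and same-numbered arrays correlated at 0.01 and -0.20 in their deviations from the group means. With trend and robust options or the filter at the 40th percentile 8 rose, and 9 at the 60th, where 40 of the 44 genes were left. The share called over all genes grew with the filters too. In either direction it was 23% at the 40th percentile, against 20.5% of the members, and 29.1% at the 60th, against 25%. With trend and robust options it was 13.1%, against 20.5% of the members. Atg13 and Wipi1 kept their calls in 12 of the 14 alternatives, Map1lc3a in 11, Atg4a in 10, Gabarapl1 in 7, Sqstm1 in 6 and Atg2b in 5. In the 6 further lists the 18 called genes kept 16 calls with quantile normalization, 9 with the replicate block and 2 without moderation. The 2 kept without moderation were Mtor and Sesn2. Median centring moved the share of higher genes among all calls to 53.5%, against 47.9%.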
